A study of Mus musculus with 4 samples.

Results

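Genes of 7 secreted immune signals were followed in mammary tumours with or without a miR-9 knockout: Cxcl12, Cxcl13, Cxcl14, Cxcl15, Ccl8, Il33 and Lif. They were chosen by gene name, with earlier results of these data known. All 7 were among the 1142 genes of the deposited tables, which is therefore not a result. The tested samples were 2 tumour samples labelled miR-9 knockout (knockouts 1 and 2), and they were set against 2 tumour samples labelled as without that knockout (controls 1 and 2). All 4 came from female MMTV-PyMT mice of mixed C57BL/6 descent, and the controls were littermates. MMTV-PyMT is a transgene in which a mammary tumour virus promoter, active mainly in mammary epithelium, drives the polyoma middle T oncogene, so controls carry the oncogene too. The labels call the allele a knockout of miR-9 exon 1 and name heterozygous animals as the source line. The labels do not give whether the tumours were homozygous, which miR-9 locus was deleted, the age of the mice, or how many animals or tumours each sample holds. The p-values therefore speak only for the spread among these 4 samples, which may be technical. The question was how tumour transcripts differ when miR-9 is deleted.

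Chemokines are small secreted proteins that draw cells bearing matching receptors along a gradient, and cytokines are secreted signals that change the state of the cells that bind them. In mammary tumours they come from cancer cells, fibroblasts and immune cells. CXC chemokines mostly guide lymphocytes, neutrophils and progenitors, CC chemokines mostly monocytes and T cells, interleukin-33 is a nuclear alarm signal set free by damaged cells, and leukaemia inhibitory factor is a cytokine of the interleukin-6 family that signals through Stat3.

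The values were normalised read counts, and all 4 libraries listed the same genes. In every listed gene the group means differed at least 2.0-fold: the study selected the table on these same samples. A call on a gene of this table is therefore not independent evidence that it changed, and its adjusted p takes no account of that selection. Relative depth was 1.04 to 1.11 in the knockouts and 0.885 to 0.998 in the controls. The controls stood farther apart than the knockouts: chi-square per degree of freedom over genes was 13.8 between the knockouts and 55.8 between the controls. In 7 of 7 members control 2 lay nearer to the knockouts than control 1 did, against 75.7% of all listed genes. In 7 of 7 members knockout 2 lay farther from the controls than knockout 1 did, against 59.0% of all listed genes. For Cxcl12 and Cxcl14 the knockouts were nearly equal, with knockout 2 at 1.001 and 1.02 times knockout 1. Mammary epithelial markers were present in all samples. Krt19, a keratin of luminal cells, stood at 13167 and 14459 normalised reads in the knockouts and 3459 and 6051 in the controls. No transcript of a miR-9 locus was listed, so the knockout was not checked against the level of miR-9 here.

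The mature miR-9 strands are shown because the knockout was aimed at miR-9 and their seeds (bases 2 to 8, in capitals) define the sites that were searched in the 7 transcripts. RefSeq (GRCm38.p6) places both strands at 3 loci, on chromosomes 3, 7 and 13.
miR-9-5p: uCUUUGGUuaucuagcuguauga
miR-9-3p: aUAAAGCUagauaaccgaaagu

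Sites of 7 bases were searched on the transcript strand of the longest annotated 3' UTR of each member, as ACCAAAG or CCAAAGA for miR-9-5p and AGCTTTA or GCTTTAA for miR-9-3p. The 3' UTR of Cxcl12 (5188 bases) held 3 sites for miR-9-5p, starting at bases 279, 1559 and 3267, and that of Cxcl15 (1586 bases) held 1, starting at base 1305. For miR-9-3p, 1 site lay in Cxcl14 (base 323 of 1149) and 1 in Lif (base 1184 of 3180). Cxcl13, Ccl8 and Il33 held none of these letters in 3' UTRs of 800, 165 and 1677 bases. At least 1 site for miR-9-5p lay in 20.3% of 21037 protein-coding genes and in 26.0% of the 1039 listed genes with a 3' UTR, against 17.4% and 19.4% for miR-9-3p. A match is a description of the letters, not a measured site. The windows follow, with the match in capitals.
Cxcl12 site at 279: ggggtggagactaagCCAAAGAggag
Cxcl12 site at 1559: gttggcccctagaaACCAAAGgccaa
Cxcl12 site at 3267: ttagacacacaaagcCCAAAGAaagg
Cxcl15 site at 1305: gcaagaacactgtgtCCAAAGAggac
Cxcl14 site at 323: tcaccacacatctgAGCTTTAtaagc
Lif site at 1184: tattaacttattggtGCTTTAAatgg

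The 250 bases before the annotated start are shown for the 2 members with the largest increases, for the CC chemokine and for the only member that fell (RefSeq, GRCm38.p6, plus strand in each case). Capitals mark matches, on either strand, to the motifs searched. They were TATAAA (the TATA box), TTCNNNGAA (STAT), TGTTTAC (FOX), TGANTCA (AP-1), ACGTG (hypoxia response element) and the longer consensus motifs of NF-kappaB, the CArG box and the estrogen response element. No capitals of different motifs overlap.
Cxcl15, chr5:90794284-90794533: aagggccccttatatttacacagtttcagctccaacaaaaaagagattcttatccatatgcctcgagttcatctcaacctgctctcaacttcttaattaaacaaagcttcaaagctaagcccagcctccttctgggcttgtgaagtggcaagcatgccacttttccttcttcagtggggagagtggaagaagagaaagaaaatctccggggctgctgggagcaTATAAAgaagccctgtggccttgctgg
Cxcl13, chr5:95956689-95956938: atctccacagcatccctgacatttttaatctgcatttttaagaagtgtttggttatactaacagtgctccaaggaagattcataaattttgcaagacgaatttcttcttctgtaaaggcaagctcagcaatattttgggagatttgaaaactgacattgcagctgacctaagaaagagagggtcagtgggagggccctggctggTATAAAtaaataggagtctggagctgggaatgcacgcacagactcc
Ccl8, chr11:82114935-82115184: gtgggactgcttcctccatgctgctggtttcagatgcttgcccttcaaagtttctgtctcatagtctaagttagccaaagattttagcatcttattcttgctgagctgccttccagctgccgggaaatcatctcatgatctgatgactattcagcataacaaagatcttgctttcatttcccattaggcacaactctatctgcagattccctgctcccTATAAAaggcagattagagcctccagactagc
Lif, chr11:4257318-4257567: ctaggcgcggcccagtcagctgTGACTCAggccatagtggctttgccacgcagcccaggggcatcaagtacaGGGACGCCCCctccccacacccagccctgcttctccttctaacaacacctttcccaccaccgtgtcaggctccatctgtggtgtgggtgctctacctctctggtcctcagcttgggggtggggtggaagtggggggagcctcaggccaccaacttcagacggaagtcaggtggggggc

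TATAAA lay 27 to 22 bases before the start of Cxcl15, 46 to 41 before that of Cxcl13 and 32 to 27 before that of Ccl8. Il33, which has 2 annotated starts, held it at 203 to 198 and at 29 to 24 bases. That makes 5 of the 8 member promoters, against 12.4% of 32851 promoters and 9.41% of those of 1041 listed genes. The NF-kappaB motif lay in the promoter of Lif and in 7.25% of all promoters. Lif also held TGANTCA, found in 6.75% of all promoters. The STAT letters occurred in Cxcl14 (7.02% of all promoters) and the FOX letters at a start of Il33 (3.17%). No member held the CArG box (1.47% of all promoters), the estrogen response element (0.0639%) or ACGTG (16.6%).

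In knockout tumours 6 of the 7 transcripts rose and Lif fell, at a limma adjusted p under 0.05. Over all listed genes 61.3% rose and 38.5% fell by the same test, so the members' directions were common ones in this table. The knockouts did not overlap the controls in 7 of 7 members, as in 99.9% of listed genes. The members had a median log2 change of 1.90, against 1.23 for the whole table of 1142 genes, of which a smaller share rose. In this table, selected for rises and falls, that median lies among the smaller of the 700 rises and is not a typical change. By size the members spread widely: Cxcl15 ranked 8 from the top of the table, Cxcl13 ranked 42, Cxcl14 220, Ccl8 289, Cxcl12 529 and Il33 639, while Lif ranked 267 from the bottom. All 7 passed the minimum mean of 0.5, and so did every other listed gene. An exact two-sided permutation test of 2 against 2 samples cannot go below p = 0.333 for a single gene. In bulk tumour RNA, fewer cells of a type and less RNA per cell cannot be told apart.

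**Figure D1:**
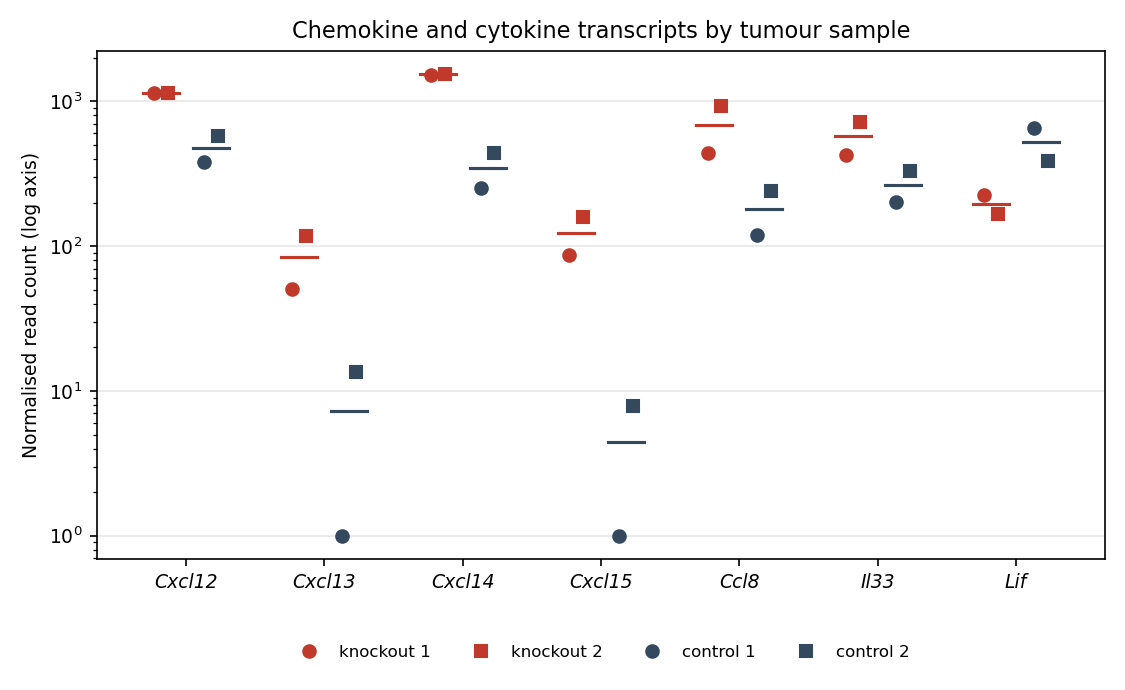
Normalised read count (log axis) of the 7 transcripts in each sample, with knockouts in red left of controls in blue, circles for replicate 1, squares for replicate 2 and a bar at each group mean. Cxcl13 and Cxcl15 are at 1.00 in control 1, the lowest points shown, and Lif alone is lower in the knockouts.

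Cxcl12 (ENSMUSG00000061353, chr6:117168535-117181367, plus strand, GRCm38) encodes the ligand of Cxcr4 that stromal cells release to hold and recruit lymphocytes and progenitors. It stood at 1149 and 1150 normalised reads in the knockouts and at 380 and 580 in the controls. The knockouts were almost equal, the controls were lower and apart, and the groups did not overlap. The group means were 1149.9 ± 0.763 in the knockouts and 480 ± 141 in the controls (SD, n = 2 in each group, here and in every later mean). Cxcl12 rose 2.40-fold as a ratio of group means, with a limma log2 change of 1.29 ± 0.33 (SE; adjusted p = 0.00928). The limma value is a difference of mean log2 values, so for members whose replicates lie apart it need not equal the log2 of the fold. Its change differed by 0.06 on the log2 scale from that of the median listed gene, which lies among the smaller rises of the table.

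Cxcl14 (ENSMUSG00000021508, chr13:56288643-56296551, minus strand), a chemokine of epithelium and of activated fibroblasts, had the most reads of the 7 members in the knockouts. It stood at 1519 and 1548 normalised reads in the knockouts and at 254 and 437 in the controls. Both knockouts were more than 3-fold above the higher control, with a gap of 3.47-fold between the nearest samples. Cxcl14 averaged 1534 ± 20.8 in the knockouts and 345 ± 130 in the controls. It rose 4.44-fold, with a log2 change of 2.20 ± 0.36 (limma adjusted p = 0.0027), which was 0.97 above the median listed gene.

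Cxcl13 (ENSMUSG00000023078, chr5:95956951-95961068, plus strand) encodes the chemokine that draws Cxcr5-bearing B cells into follicles. It had 56 and 123 reads in the knockouts and 1 and 12 in the controls, or 50.6 and 118 against 1.00 and 13.6 after normalisation. Knockout 2 was the high sample and control 1 was close to no signal. The means were 84.3 ± 47.6 in the knockouts and 7.28 ± 8.88 in the controls. Cxcl13 rose 11.6-fold by the means, and its limma log2 change, in which the low control 1 weighs more, was 3.86 ± 0.95 (limma adjusted p = 0.00819). The ratio of depth-scaled reads was 12.1 with an exact Clopper-Pearson 95% interval of 6.88 to 23.1, which covers counting error only. The size rested on control 1: the log2 change was 2.43 without control 1 and 5.29 without control 2.

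Cxcl15 (ENSMUSG00000029375, chr5:90794534-90803067, plus strand) encodes lungkine, a mouse chemokine that attracts neutrophils and is best known from lung epithelium. It had 96 and 166 reads in the knockouts and 1 and 7 in the controls, or 86.7 and 159 against 1.00 and 7.91 after normalisation. Both knockouts lay far above both controls, and control 1 was close to no signal. The means were 123 ± 51.2 in the knockouts and 4.46 ± 4.88 in the controls. Cxcl15 rose 27.6-fold, with a log2 change of 4.81 ± 0.79 (limma adjusted p = 0.00281). The ratio of depth-scaled reads was 28.7 (exact Clopper-Pearson 95% interval 14.3 to 67.1). Against control 2 alone it was 15.4 (7.37 to 38.7), and against the single read of control 1 it was 122 (21.6 to 4822). The log2 change was 3.73 without control 1 and 5.89 without control 2. None of 12 lung epithelium markers was listed, and their levels were not analysed here. Within its bounds lies a small RNA gene on the other strand, Gm24322. Whether that gene overlaps an exon of Cxcl15 was not checked, and the strand setting is not given. Whether its reads entered the count of Cxcl15 is therefore not known.

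Ccl8 (ENSMUSG00000009185, chr11:82115185-82116799, plus strand) encodes a monocyte-attracting CC chemokine that macrophages make. It stood at 441 and 925 normalised reads in the knockouts and at 120 and 242 in the controls. Replicate 2 was the higher sample in each group, by 2.10-fold in the knockouts and 2.01-fold in the controls, while the nearest knockout and control were 1.82-fold apart without overlap. The means were 683 ± 342 in the knockouts and 181 ± 85.9 in the controls. Ccl8 rose 3.77-fold, with a log2 change of 1.90 ± 0.48 (limma adjusted p = 0.00868). Without control 1 it did not pass (log2 change 1.40; limma adjusted p = 0.0971).

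Il33 (ENSMUSG00000024810, chr19:29925114-29960718, plus strand) encodes interleukin-33, which acts on mast cells, innate lymphoid cells and regulatory T cells through the receptor Il1rl1. It stood at 424 and 723 normalised reads in the knockouts and at 200 and 330 in the controls. The lower knockout was 1.28-fold above the higher control, the smallest gap among the 7 members. The means were 573 ± 211 in the knockouts and 265 ± 91.5 in the controls. Il33 rose 2.16-fold, with a log2 change of 1.10 ± 0.40 (limma adjusted p = 0.0255). That change was 0.13 lower than the median listed gene (difference -0.13). Without control 1 it did not pass (log2 change 0.74; limma adjusted p = 0.179).

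Lif (ENSMUSG00000034394, chr11:4257557-4272514, plus strand) encodes leukaemia inhibitory factor, which binds Lifr together with the shared receptor chain Il6st. It stood at 226 and 167 normalised reads in the knockouts and at 659 and 389 in the controls. Both knockouts were lower than both controls, and control 1 was the high sample. The means were 196 ± 41.8 in the knockouts and 524 ± 191 in the controls. The control mean was 2.67 times the knockout mean. The log2 change was -1.38 ± 0.38 (limma adjusted p = 0.0111), which is 2.61 below the median listed gene (difference -2.61).

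The directions and sizes are relative to the deposited size factors. Scaling the recovered reads on the listed genes themselves, which are a selected set, moved the median log2 change of all of them to 0.88 with totals, 0.79 with upper quartiles, 0.48 with TMM and 0.13 with RLE factors, against 1.23 as deposited. No member changed sign under any of the 4. Cxcl14, Cxcl15 and Lif passed the edgeR quasi-likelihood test in all 4. Cxcl13 passed in all but RLE, where its log2 change was 2.54 (edgeR adjusted p = 0.068). Cxcl12 and Ccl8 passed with totals and upper quartiles. Under TMM their log2 changes were 0.54 (edgeR adjusted p = 0.138) and 1.20 (0.0651), and under RLE 0.20 (0.607) and 0.86 (0.149). Il33 passed in none of the 4, with log2 changes of 0.77 with totals (edgeR adjusted p = 0.0928), 0.70 with upper quartiles (0.117), 0.39 with TMM (0.336) and 0.04 with RLE (0.939). The fall of Lif grew to -2.58 under RLE. Of all listed genes 47.6% were called higher with totals, 40.8% with upper quartiles, 21.7% with TMM and 12.4% with RLE, and 38.7% were called lower in each of the 4.

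**Figure D2:**
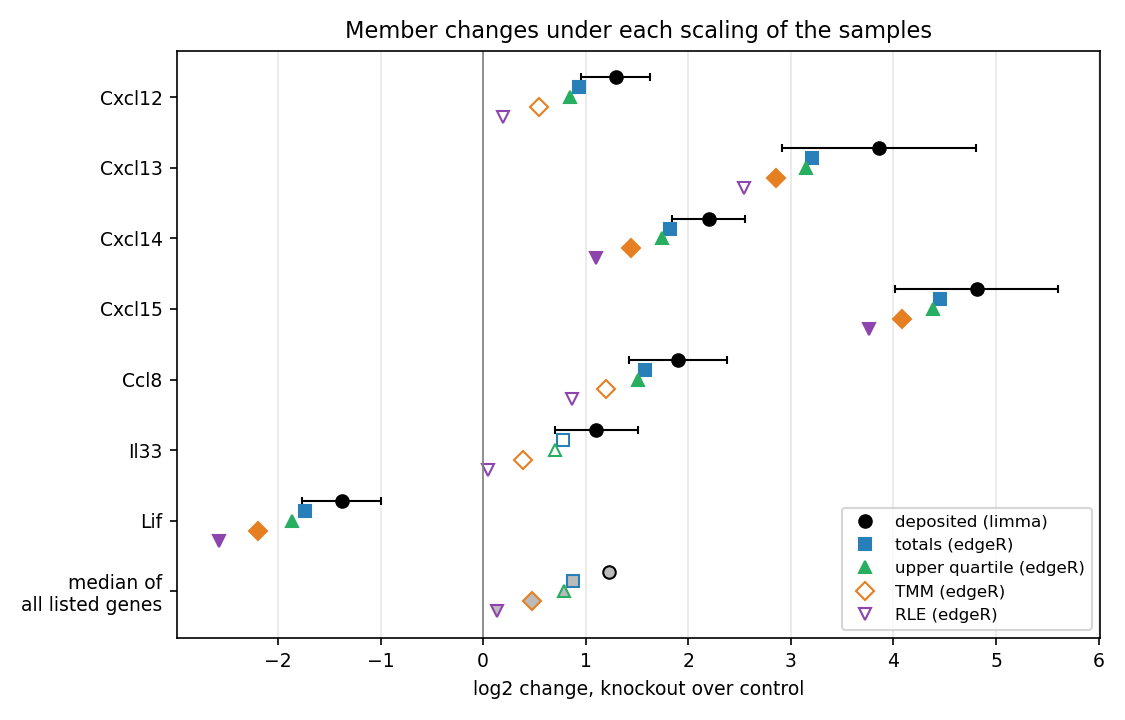
Log2 change, knockout over control, of each member under 5 scalings of the samples, with the median of all 1142 listed genes in the lowest row. Filled member symbols passed an adjusted p under 0.05 and open ones did not, bars are the SE of the limma fit, and Il33 passed with the deposited factors only.

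Leaving out samples bore on every call. With a single control left, that control is assumed to vary like the knockouts, which stood closer together than the controls. A call kept in such a fit therefore takes no account of the spread of the controls. Without control 1, 4 members were called higher and Lif lower by limma, against 54.6% and 32% of all listed genes. Without control 2 all 7 kept their calls, against 58.2% called higher and 35.5% lower. With a single knockout left, which is assumed to vary like the controls, none of the 7 members passed. Their limma adjusted p ran from 0.102 to 0.126 without knockout 1 and from 0.124 to 0.275 without knockout 2. The same held for nearly all of the table: 1.14% of listed genes were called higher and 0% lower without knockout 1, and the same shares without knockout 2.

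Per kilobase of annotated gene length, which allows levels of different genes to be set side by side, Ccl8 and Cxcl14 made up most of the 7 transcripts. In the knockouts Ccl8 averaged 1337 ± 670 normalised reads per kilobase, Cxcl14 839 ± 11.4, Il33 199 ± 73.3 and Cxcl12 141 ± 0.0934. Below them in the knockouts came Cxcl13 at 73.3 ± 41.4, Cxcl15 at 57.8 ± 24.1 and Lif at 45.1 ± 9.60 per kilobase. In the controls Ccl8 averaged 354 ± 168, Cxcl14 189 ± 71.1, Lif 120 ± 44.0, Il33 91.9 ± 31.7 and Cxcl12 58.7 ± 17.3 per kilobase. Cxcl13 at 6.33 ± 7.72 and Cxcl15 at 2.09 ± 2.30 came last in the controls. Neighbours in these orders differed by less than the larger SD of the pair, except Cxcl14 over Il33 and Cxcl12 over Cxcl13 in the knockouts, and Il33 over Cxcl12 and Cxcl12 over Cxcl13 in the controls. These orders are of group means, and single samples departed from them. In control 1 Lif (152) lay above Cxcl14 (139), and in control 2 Lif (89.3) lay below Il33 (114). In knockout 1 Lif (51.9) lay above Cxcl13 (44.0) and Cxcl15 (40.8).

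Shares of the members' summed level per kilobase do not depend on the scaling of a sample. Lif made up 1.17 to 2.45% of the sum in the knockouts and 8.91 to 23.6% in the controls. Il33 also took a smaller share in the knockouts, 6.93 to 7.67%, against 10.8 to 11.4% in the controls. Cxcl12 did too, with 4.31 to 6.64% against 7.07 to 7.23%, although the reads of both rose with the deposited scaling. Cxcl14 held 26.0 to 39.2% in the knockouts and 21.6 to 23.9% in the controls. Cxcl13 held 2.08 to 3.14% against 0.136 to 1.18%, and Cxcl15 1.93 to 2.29% against 0.0733 to 0.371%. The share of Ccl8 overlapped, at 40.7 to 55.5% in the knockouts and 36.6 to 47.2% in the controls.

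**Figure D3:**
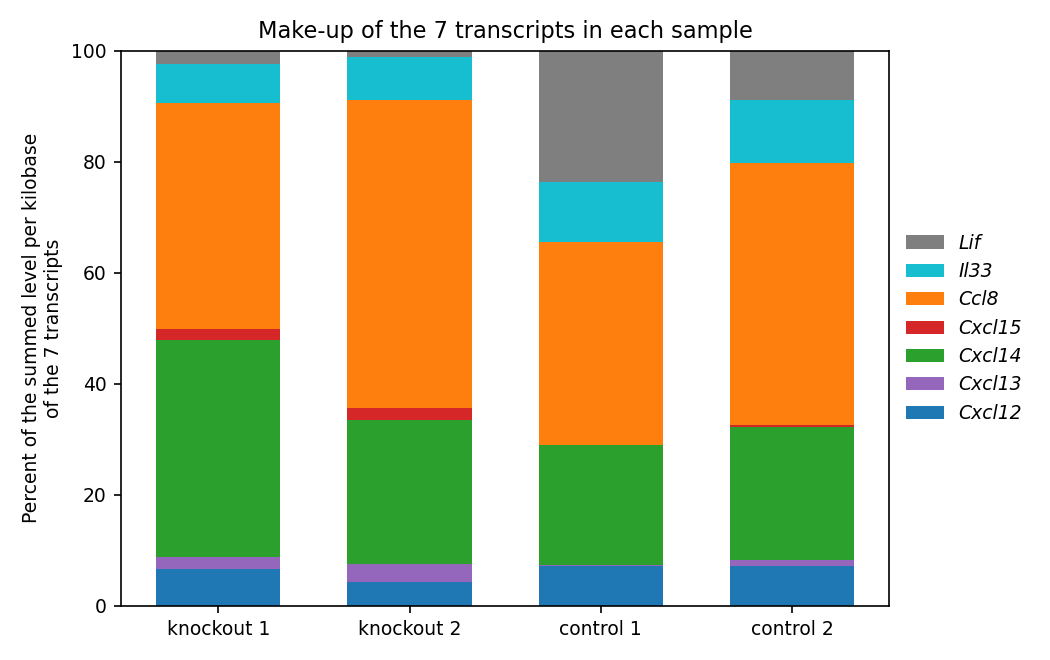
Stacked bars of the percent that each of the 7 transcripts held of their summed level per kilobase, in knockouts 1 and 2 (left) and controls 1 and 2 (right). The grey Lif segment is 1.17 to 2.45% in the knockouts and 8.91 to 23.6% in the controls.

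Ratios between members within a sample are free of the scaling too. The per-kilobase ratio of Cxcl14 to Cxcl12 was 5.91 to 6.02 in the knockouts and 2.99 to 3.38 in the controls. Cxcl15 to Cxcl12 was 0.290 to 0.532 in the knockouts against 0.0101 to 0.0525 in the controls, and Cxcl15 to Cxcl13 was 0.730 to 0.927 against 0.315 to 0.541. Lif to Cxcl12 was 0.273 to 0.369 in the knockouts and 1.26 to 3.26 in the controls. Ccl8 to Il33 was 5.88 to 7.23 in the knockouts and 3.39 to 4.14 in the controls. The ratios of Ccl8 and of Il33 to Cxcl12 overlapped between the groups. Such ratios show unequal change and not which gene changed.

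Some markers of the cells known to make these signals were among the listed genes, which were selected for a group difference. The levels of unlisted markers were not analysed here. Of 14 macrophage markers 6 were listed and all 6 were called higher, against 61.3% of all listed genes. Their summed level was 35961 to 43072 normalised reads in the knockouts and 9683 to 16681 in the controls, with none at 0. Apoe held most of that sum, and the other 5 summed to 7588 and 9267 in the knockouts and 3121 and 4882 in the controls. Under RLE none of the 6 was called and the signs of C1qa and C1qc turned. Of 15 fibroblast markers 4 were listed, Sparc, Mmp2 and Dcn higher and Fn1 lower, with a sum of 21076 to 27179 in the knockouts and 10520 to 12847 in the controls. Without Sparc the other 3 summed to 6365 and 8536 in the knockouts and 5273 and 5746 in the controls, which lay closer together. Under TMM Sparc and Mmp2 were not called, and under RLE none of the 3 higher ones was.

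Some epithelial markers were listed too. The 6 listed of 13 luminal markers summed to 21297 to 25793 normalised reads in the knockouts and 5377 to 8924 in the controls. All 6 were called higher, against 61.3% of all listed genes. Under TMM 4 of the 6 were called, and under RLE 3, without Krt19, Ly6a and Spdef. The 7 listed of 13 basal and myoepithelial markers summed to 28041 to 29109 in the knockouts and 6686 to 9170 in the controls, with 6 higher and Krt14 lower. Under RLE Oxtr was not called.

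The members were set against each of these 4 marker sums (macrophage, fibroblast, luminal, basal), with and without its largest gene, a variation chosen after the values were seen. Each sum holds only markers that passed the selection of the table on these same samples, most of them higher in the knockouts. That selection can raise the sums in the knockouts and so lower the members' ratios there, by an amount that was not tested. Cxcl13, Cxcl15 and Lif kept their directions without overlap by all 8 sums. Per 1000 normalised reads of the luminal markers, Cxcl15 stood at 4.07 and 6.17 in the knockouts and 0.186 and 0.886 in the controls, and Lif at 10.6 and 6.47 against 123 and 43.5. Cxcl14 was higher without overlap by every sum except the luminal one without Krt19, where it stood at 187 and 137 in the knockouts and 132 and 152 in the controls.

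For Ccl8, Il33 and Cxcl12 the outcome depended on the sum used. Ccl8 per 1000 normalised reads of all 6 macrophage markers was 12.3 and 21.5 in the knockouts and 12.4 and 14.5 in the controls, which overlapped, but without Apoe it was 58.1 and 99.8 against 38.5 and 49.5. By the fibroblast sum Ccl8 was higher without overlap (20.9 and 34.0 against 11.4 and 18.8), and by the luminal and basal sums it overlapped. Il33 overlapped by the fibroblast sum (20.1 and 26.6 in the knockouts, 19.1 and 25.7 in the controls). By the macrophage sum it was lower without overlap (11.8 and 16.8 against 20.7 and 19.8), as it was by the luminal and basal sums. Without Apoe or Acta2 Il33 overlapped by the macrophage and basal sums, and without Sparc it was higher by the fibroblast sum. Cxcl12 overlapped by the fibroblast sum (54.5 and 42.3 in the knockouts, 36.1 and 45.1 in the controls) and was lower without overlap by the other 3. Without Apoe Cxcl12 was higher by the macrophage sum (151 and 124 against 122 and 119), and without Sparc by the fibroblast sum. The part of these cells in the members' changes was not tested.

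Markers of lymphocytes and of lymphoid stroma are set beside Cxcl13. Of 12 B and plasma cell markers 3 immunoglobulin heavy chain genes were listed, with a sum of 732 to 1085 normalised reads in the knockouts and 165 to 230 in the controls. Of 10 markers of follicular dendritic cells and lymphoid stroma only Enpp2 was listed (182 to 210 against 31.1 to 44.1), and of 15 T and NK cell markers 3 (216 to 224 against 50.1 to 71.2). Under TMM Ighg2b, Nkg7 and Gzma were not called. Under RLE Ighg2b and all 3 T and NK cell markers were not called. Enpp2 was called under both. Among 12 genes of dendritic cells and antigen presentation by MHC class II, 5 were listed. They summed to 26160 to 30275 in the knockouts and 10417 to 14030 in the controls. Fscn1 was lower (295 and 274 in the knockouts against 687 and 647 in the controls), and the other 4 were higher. Under TMM and under RLE none of those 4 was called, while Fscn1 was. Markers of tissues that can be taken with a tumour were listed too. Adipocyte markers (3 of 10) summed to 231 to 810 in the knockouts against 67.1 to 122 in the controls. Salivary gland markers (3 of 10) summed to 227 to 262 against 65.1 to 91.5. In the salivary list Egf and Prol1 were higher, and Dcpp3 was lower (5.42 and 0 in the knockouts against 35.1 and 44.1 in the controls). Without Egf the other 2 summed to 84.0 and 17.3 in the knockouts against 35.1 and 48.6 in the controls, which overlapped. Skin keratinocyte markers (4 of 10) summed to 430 to 541 against 352 to 474, and Schwann cell markers (4 of 9) to 1509.9 to 1528 against 776 to 1533. Both of these sums overlapped between the groups. In the skin list Krt79 was lower, and the other 3 were higher, at 261 and 385 in the knockouts against 91.2 and 62.1 in the controls. Skeletal muscle genes (9 of 13) summed to 2992 to 3084 against 1732 to 2440. In the muscle list Tpm2, which other cells make too, was higher and held most of the sum, and the other 8 were lower, at 75 and 45.1 in the knockouts against 609 and 1059 in the controls. In the Schwann list Mal was lower, and the other 3 were higher, at 1200.0 and 1059 in the knockouts against 132 and 278 in the controls. Single samples had no read of Dcpp3 (salivary list, knockout 2), Myh1 (muscle list, knockout 1) or Prol1 (salivary list, control 1). None of 11 endothelial and 12 neutrophil and mast cell markers was listed, and their levels were not analysed here. The part of these tissues in the members' changes was not tested.

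Few other genes of the same pathways were in the table. The chemokine ligand list of 38 genes had 5 listed, all of them members and all called higher, with a median log2 change of 2.20, in a table where 61.3% of genes were called higher with a median of 1.23. Under RLE only Cxcl14 and Cxcl15 of the 5 were called. Of 23 chemokine receptors, Cx3cr1 alone was listed, the fractalkine receptor of macrophages and NK cells. It stood at 528 and 588 normalised reads in the knockouts and at 164 and 322 in the controls (2.29-fold; limma adjusted p = 0.0148). The receptors Cxcr4, Ackr3, Cxcr5, Il1rl1, Lifr and Il6st were not analysed here. Lif was the only listed gene of 25 in the interleukin-6 family, its receptors and signalling.

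Of 27 genes of the interleukin-1 family 5 were listed and all 5 rose, against 61.3% of all listed genes, with a median log2 change of 1.80. Besides Il33 they were 3 receptors, all encoded on chromosome 1, and an inhibitor. Whether the rises of those 3 receptors were separate events was not tested. Il1r1, the signalling receptor of interleukin-1, stood at 260.2 and 291 normalised reads in the knockouts and at 69.1 and 89.3 in the controls (3.48-fold; limma adjusted p = 0.00523). Il1rl2, the interleukin-36 receptor, stood at 191 and 214 in the knockouts and at 51.1 and 54.2 in the controls (3.84-fold; limma adjusted p = 0.00457). Il18r1, a chain of the interleukin-18 receptor, stood at 117 and 215 in the knockouts and at 19.0 and 45.2 in the controls (5.17-fold; limma adjusted p = 0.00687). Irak3, which restrains signalling from these receptors, stood at 265 and 337 in the knockouts and at 62.1 and 129 in the controls (3.15-fold; limma adjusted p = 0.0089). In each of the 4 the knockouts were higher and the groups did not overlap. Under RLE none of the 5 was called and their median log2 change was 0.71, with no sign turned, and under TMM Irak3 and Il33 were not called.

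The remaining lists had few listed genes. Of 49 other interleukins and receptors 3 were listed. Il17b, an interleukin-17 family cytokine, stood at 483 and 465 in the knockouts and at 95.2 and 244 in the controls (limma adjusted p = 0.0117). Il2rb, a receptor chain for interleukin-2 and interleukin-15, stood at 76.8 and 85.3 in the knockouts and at 27.1 and 26.0 in the controls (limma adjusted p = 0.0124). Il17rd fell, at 165 and 140.0 in the knockouts and 282 and 386 in the controls (limma adjusted p = 0.0158). Of 11 colony-stimulating factors and receptors Csf1r alone was listed, the receptor on which macrophages depend, at 1362 and 1487 in the knockouts and 452 and 748 in the controls (limma adjusted p = 0.0104). Of 37 genes of the TNF superfamily, Ngfr rose (90.4 and 42.2 in the knockouts, 9.02 and 12.4 in the controls; limma adjusted p = 0.0082) and Eda2r fell (52.4 and 51.8 against 144 and 129; limma adjusted p = 0.0125). Of 25 interferon genes and targets Ido1 alone was listed. This interferon-induced enzyme degrades tryptophan, and it stood at 291 and 297 in the knockouts against 8.02 and 12.4 in the controls (limma adjusted p = 0.00101). Under RLE Cx3cr1, Il17b, Il2rb, Csf1r and Ngfr were not called, while Ido1, Il17rd and Eda2r were.

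**Figure D4:**
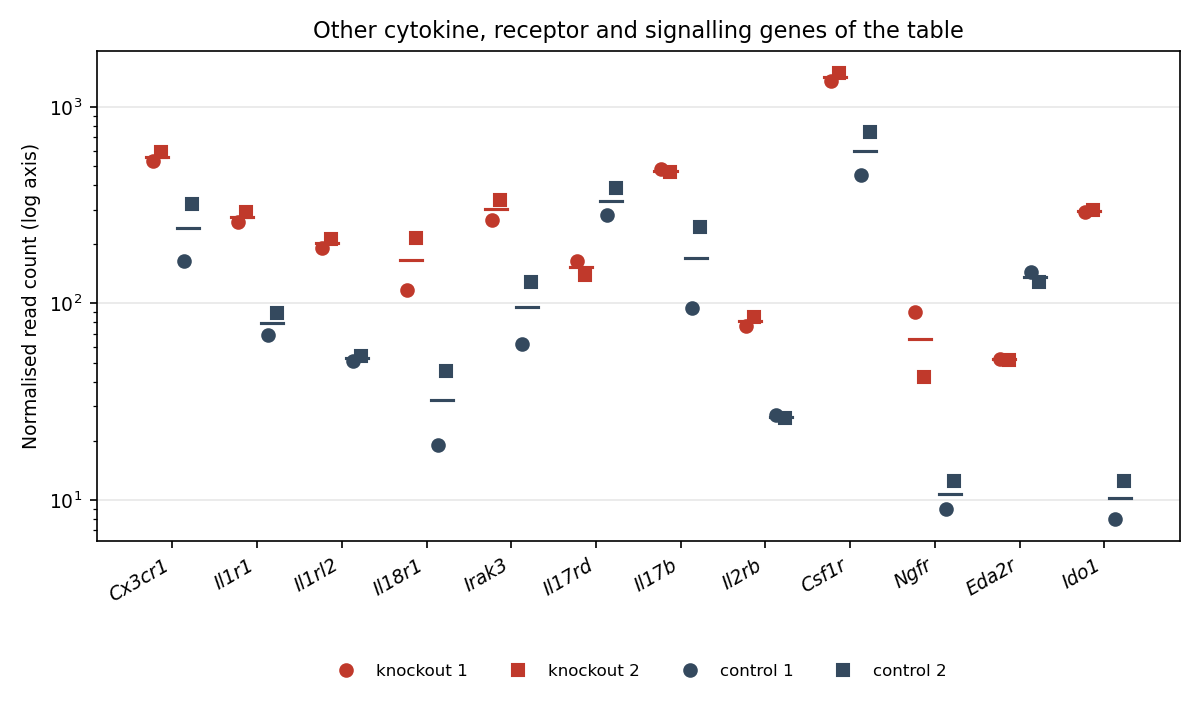
Normalised read count (log axis) of the 12 other listed genes of the pathway lists in each sample, with knockouts in red left of controls in blue and a bar at each group mean. Il17rd and Eda2r are lower in the knockouts, and the other 10 are higher.

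The genes whose pattern over the 4 samples lay nearest to each member were ranked by Euclidean distance between log2 values centred on their own mean. With 4 samples in 2 groups such likeness mostly reflects the group difference and the spread of the controls. For Cxcl12 they were Sash1 (distance 0.053), Calhm2 (0.070) and Ttc39c (0.085), and for Cxcl14 Ntrk3 (0.11), Cul9 (0.15) and Tgfb1i1 (0.17). For Cxcl13 they were Cdo1 (0.62), Lgi1 (0.84) and Lep (0.89), and for Cxcl15 Cited1 (0.19), Fam25c (0.38) and Apof (0.46). For Ccl8 they were Tmem200a, Dcn (both 0.30) and Mgl2 (0.31), for Il33 Rac2 (0.14), Mrc1 (0.16) and Fkbp10 (0.20), and for Lif Dnmt3b (0.16), Gdf11 (0.17) and Ccne1 (0.18).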

How the data were processed

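Deposited RNA-seq tables cover 4 tumour samples, 2 labelled miR-9 knockout and 2 labelled as without it, with genotype as labelled. Tumour RNA went into TruSeq libraries read on a NovaSeq, per the labels' protocols. Bowtie 0.12.2 and the builds hg38, GRCm38 and mm10 appear in the submitters' processing notes without a stated role. How reads were counted, the strand setting and the listing criteria are not stated there.

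The deposited signal values were read counts per gene divided by 1 size factor per sample: dividing a sample by its smallest nonzero value gave whole reads for 100% of genes (tolerance 1e-06 reads). For control 1 this divisor lies close to 1, which makes its recovered reads less sure. The listed genes held 694925 and 697334 reads in the knockouts and 512574 and 458335 in the controls, which is not the libraries' whole depth. Counting error is all that the intervals cover.

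Groups were compared with limma 3.58.1 (R 4.3.3) fitted to log2(value + 1) with a trend, a minimum mean of 0.5, a model of genotype alone (2 residual degrees of freedom) and a Benjamini-Hochberg threshold of 0.05 over 1142 genes. Log2 changes are differences of mean log2 values, and the added 1 shrinks those of low genes. Folds are ratios of group means. Alternatives were pseudocounts of 0.1 and 5, other filters, a threshold of 0.01, a replicate term, leaving out each sample, and edgeR 4.0.16, DESeq2 1.42.0 and limma-voom on recovered reads. Simulated counts with known changes were used to test the fits.

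Members, gene lists (8 pathways, 16 cell types) and tests were chosen with earlier results of these data known. Genes named were the members, every listed pathway gene, up to 4 markers of each cell type and the 3 nearest patterns per member. Sites were searched in GENCODE M21 (GRCm38), and promoters and miRNAs come from RefSeq (GRCm38.p6). Figures used matplotlib 3.10.9. Unused columns of per-sample values numbered 0.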

Additional observations from a re-analysis of the deposited data

How the results depend on the processing

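None of the 7 members changed sign in any of 17 alternatives, but many of these could not turn a sign. The groups did not overlap in any member, so leaving out a sample could not do so. The replicate term and the threshold of 0.01 kept the same log2 changes. The other filters on low values removed no gene and so repeated the main fit. Pseudocounts of 0.1 and 5, and edgeR, DESeq2 and limma-voom with the deposited scaling, left all 7 members called. At a threshold of 0.01 the listed genes called higher and lower numbered 387 and 197, with 5 members higher and 0 lower (Il33 and Lif did not pass). Scaling on the listed genes left 466 genes called higher with upper quartiles, 248 with TMM (3 members) and 142 with RLE (2 members), and higher genes then made up 51.3%, 35.9% and 24.3% of all calls in that order, against 61.4% as deposited and 55.2% with totals. The selection of the genes on which these factors rest is a limit, and the cause was not tested. Leaving out each sample gave 13 to 665 genes called higher and 0 to 405 lower, with 0 to 6 members higher and 0 to 1 lower. The lowest values came from fits with a single knockout, whose residual spread is that of the 2 controls alone. Fits with a single control use the spread of the 2 knockouts, which stood closer together. The part of this in the counts was not tested.

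A term for the replicate number (replicate block) gave 700 genes called higher and 442 lower, with 6 members higher and 1 lower. The numbers were not shown to pair the samples: deviations from the group means of same-numbered samples correlated at 0.043. Cxcl13 and Cxcl15 rest on 1 read each in control 1, so counting error limits the size of their increases.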

Other observations

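Several members lie in gene clusters of related signals, and none of those neighbours was in the table. Within 250 kb of Cxcl15 on chromosome 5 the annotation places 6 other chemokine genes, Cxcl5, Ppbp, Pf4, Cxcl3, Cxcl1 and Cxcl2, and 0 of them were listed. Within 250 kb of Ccl8 on chromosome 11 it places 5, Ccl2, Ccl7, Ccl11, Ccl12 and Ccl1, and 0 were listed. Osm lies beside Lif and Il9 near Cxcl14, and neither was listed. What these neighbours did in the tumours was not analysed here.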
